A study of Mus musculus with 12 samples.

Results

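The mouse mitochondrial genome carries 37 genes, and every one of them was measured in 12 mammary tumors. These genes were taken as all entries whose symbol starts with mt-, which gave 37 of the 47593 genes in the expression values: 13 protein-coding genes, 2 ribosomal RNA (rRNA) genes and 22 transfer RNA (tRNA) genes. All 37 matched a gene on chromosome M of the GENCODE vM21 annotation of the GRCm38 genome by Ensembl identifier, so no member was missing. The levels are given as TPM, a transcript abundance in which reads are divided by gene length and scaled to the same total in each tumor, so that genes can be compared with each other per length. TPM holds no read numbers, so sequencing depth is unknown here and counting errors could not be set beside the values.

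The 12 tumors came from 9 female MADM-mutant mice of mixed background that had received no treatment, and the values used here include no normal gland. Mosaic analysis with double markers (MADM) uses split GFP and RFP cassettes (RG;GR alleles in the labels, while the methods name the lines TG11ML and GT11ML), with the Brca1 flox and p53 KO alleles on the chromosome of one cassette and an MMTV-Cre transgene. Cre-driven exchange between homologous chromosomes yields GFP-labelled cells that lack Brca1 and p53 within a heterozygous animal. MMTV-Cre acts in mammary epithelium, and whole tumor tissue was homogenized, so stroma, blood and heterozygous cells could be part of each sample. Tumors 3 and 4 shared a mouse, tumors 10, 11 and 12 shared another, and the other 7 mice gave 1 tumor each. Values from the same mouse were averaged, so means, standard deviations (SD) and p-values refer to n = 9 mice and to the spread between them, while ranges and medians are over the 12 tumors. The ages of the mice at collection are not given in the sources used here.

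Mitochondrial DNA is read from both strands as long transcripts that span most of the circle. Many of the tRNA genes sit between the other genes, and cutting at the tRNAs releases the messenger and ribosomal RNAs, most of which then receive short poly(A) tails. The 13 proteins are core subunits of the respiratory chain and of the ATP synthase, whose other subunits are encoded in the nucleus and imported. The plus strand, as used here, holds 12 of the coding genes, both rRNA genes and 14 tRNA genes. The minus strand holds mt-Nd6 and 8 tRNA genes.

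The targeted genes had transcripts in every tumor, with 14.3 ± 5.71 TPM for Brca1 (6.93 to 24.7 TPM) and 56.3 ± 14.9 TPM for Trp53 (30.2 to 74.2 TPM). A value per gene does not separate mutant from intact transcripts or tumor cells from other cells. Epithelial markers (Epcam, Cdh1, Krt8, Krt18, Cldn3 and Cldn4) summed to between 155 and 7952 TPM in 11 tumors and to 1.61 TPM in tumor 2, where Epcam was at 0. Tumor 2 instead had 4662 TPM of 5 B lymphocyte markers, against 11.6 to 333 TPM elsewhere. Of these, 4 were highest in tumor 2, with Ighm alone at 2873 TPM. The exception was Ms4a1, at 2.18 TPM in tumor 2 and 11.7 TPM in tumor 9. By these markers tumor 2 went against its mammary label. Values without tumor 2 are also given for the mitochondrial and tRNA shares, mt-Co1, mt-Ts1, Tfam, 7 nuclear subunit genes and 2 correlations with mt-Co1. Tumor 8 was also low in epithelial markers, with Krt8 at 128 TPM and Epcam at 2.03 TPM. It had the highest summed fibroblast (3115 TPM) and macrophage (3668 TPM) markers.

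The 37 genes took 5.04 ± 1.29% of the TPM of a tumor (SD, n = 9 mice). The lowest share was 3.66% in tumor 3, the median 4.58% and the highest 7.40% in tumor 5, a 2.02-fold range. Tumors 5 and 2, with 7.40% and 6.74%, stood above the next highest tumor, tumor 6 with 5.59%, and the other 9 lay between 3.66% and 4.98%. Without tumor 2 the mean was 4.83 ± 1.20%. In whole tissue, fewer cells with many mitochondria and less mitochondrial RNA per cell cannot be told apart.

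Nearly the whole of that share came from the 13 coding genes, with 4.83 ± 1.25%. The 22 tRNA genes took 0.181 ± 0.0505%, between 0.104% in tumor 12 and 0.282% in tumor 2 (0.168 ± 0.0356% without tumor 2). The 2 rRNA genes took 0.0316 ± 0.00987%, between 0.0154% in tumor 12 and 0.0470% in tumor 1. The order of the tumors was therefore not the same for the 3 classes, and tumor 5, highest for the coding genes, was in neither extreme for rRNA or tRNA. The libraries were made from poly(A) RNA, and how far that selection sets the proportions between the classes was not tested.

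**Figure D1:**
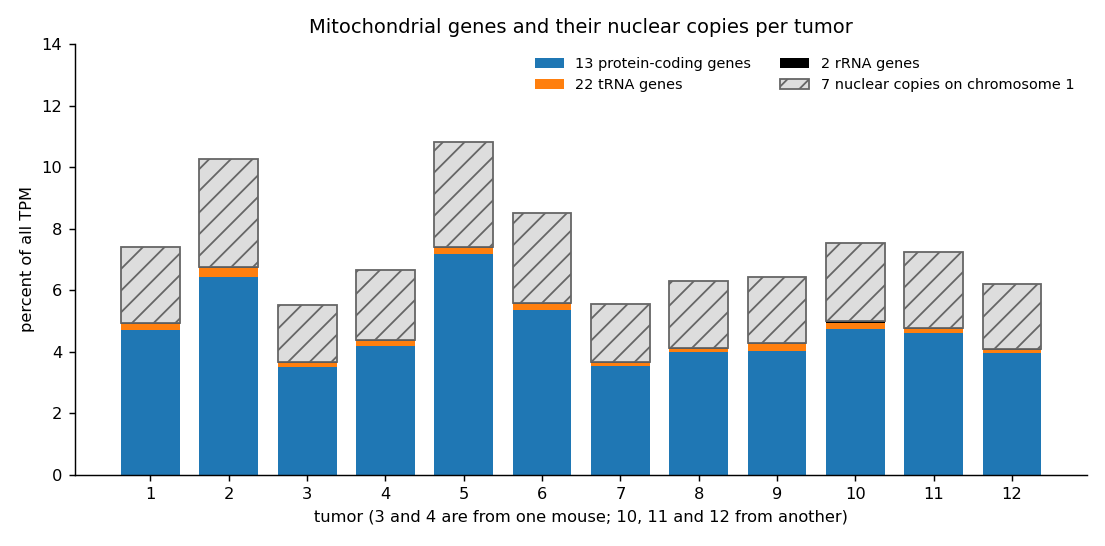
Percent of all TPM (vertical axis, from 0) in each of the 12 tumors (horizontal axis), stacked for the 13 protein-coding, 22 tRNA and 2 rRNA genes, with the 7 near-identical nuclear copies on chromosome 1 hatched above. Tumors 5 and 2 have the highest mitochondrial shares, 7.40% and 6.74%, and the copies add 1.84% to 3.54%.

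By complex, the coding genes of complex IV had the largest summed TPM. Gene by gene, mt-Co1 was first, but mt-Co2 and mt-Co3 had lower means than mt-Atp6 and mt-Cytb. Cytochrome c oxidase, which passes electrons to oxygen, has 3 subunits made in the mitochondrion. mt-Co1 (ENSMUSG00000064351, chromosome M from 5328 to 6872), its catalytic subunit, had the highest mean of all 47593 genes, at 10490 ± 3577 TPM. It ran from 5784 TPM in tumor 3 over a median of 9682 TPM to 18609 TPM in tumor 2. Tumor 2 stood 1.52-fold above the next tumor, and the other 11 lay within 5784 and 12253 TPM. Without tumor 2 the mean was 9475 ± 2006 TPM (n = 8 mice).

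mt-Co2 (7013 to 7696), which takes electrons from cytochrome c, had 5479 ± 1244 TPM, from 4137 TPM in tumor 9 over a median of 5112 TPM to 7618 TPM in tumor 5. It varied least of the coding genes, with a coefficient of variation of 22.7% over mice. mt-Co3 (8607 to 9390), the other core subunit, had 4344 ± 1130 TPM, from 2566 TPM in tumor 3 over a median of 4123 TPM to 6014 TPM in tumor 2. The complex IV genes made up 42.2 ± 4.98% of the coding TPM. Tumor 5 was lowest at 32.1% and tumor 2 highest at 49.8%, so the 2 tumors with the largest mitochondrial share were at opposite ends for complex IV.

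Among the coding genes, mt-Atp6 and mt-Cytb had the highest means after mt-Co1. mt-Atp6 (7927 to 8607), a subunit of the proton channel, had 6056 ± 1953 TPM, from 4132 TPM in tumor 9 over a median of 5552 TPM to 10492 TPM in tumor 5. mt-Atp8 (7766 to 7969), a short subunit of the same membrane part, had 5161 ± 1549 TPM, with the same lowest (3507 TPM) and highest (8570 TPM) tumors and a median of 4503 TPM. The pair took 23.2 ± 3.05% of the coding TPM. mt-Cytb (14145 to 15288), the mitochondrial subunit of complex III, had 5680 ± 2375 TPM, from 3905 TPM in tumor 9 over a median of 4842 TPM to 11428 TPM in tumor 5. Tumor 5 stood 1.53-fold above the next tumor, tumor 2 with 7460 TPM, and the other 10 lay between 3905 and 5292 TPM. mt-Cytb took 11.6 ± 2.09% of the coding TPM. The means of mt-Atp6, mt-Cytb, mt-Co2 and mt-Atp8 lay within 1 SD of each other, and of these mt-Atp6 with mt-Atp8 was the 1 pair compared within tumors.

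The 7 genes of complex I, which takes electrons from NADH, together took 22.9 ± 3.78% of the coding TPM, and per length each of the 7 had a lower mean than the other 6 coding genes. mt-Nd1 (2751 to 3707) had 3283 ± 1017 TPM, from 2223 TPM in tumor 8 over a median of 2866 TPM to 5240 TPM in tumor 5. mt-Nd2 (3914 to 4951) had 1920 ± 892 TPM, from 1077 TPM in tumor 12 over a median of 1667 TPM to 4103 TPM in tumor 5, 1.76-fold above the next tumor. mt-Nd4 (10167 to 11544) and mt-Nd4l (9877 to 10173) had 2099 ± 629 and 1316 ± 439 TPM, and both were highest in tumor 5 at 3504 and 2285 TPM.

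mt-Nd3 (9459 to 9806) was the lowest coding gene at 451 ± 121 TPM, from 310 TPM in tumor 7 to 716 TPM in tumor 5. mt-Nd5 (11742 to 13565), a proton-pumping subunit further along the plus strand, had 1092 ± 414 TPM, from 500 TPM in tumor 12 over a median of 994 TPM to 1665 TPM in tumor 2. mt-Nd6 (13552 to 14070, minus strand) had 930 ± 350 TPM, from 366 TPM in tumor 12 over a median of 938 TPM to 1369 TPM in tumor 2. These 2 genes spread most of the 13, with SDs over mice of 0.61 and 0.63 on the log2(TPM + 1) scale, against 0.31 for mt-Co2.

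**Figure D2:**
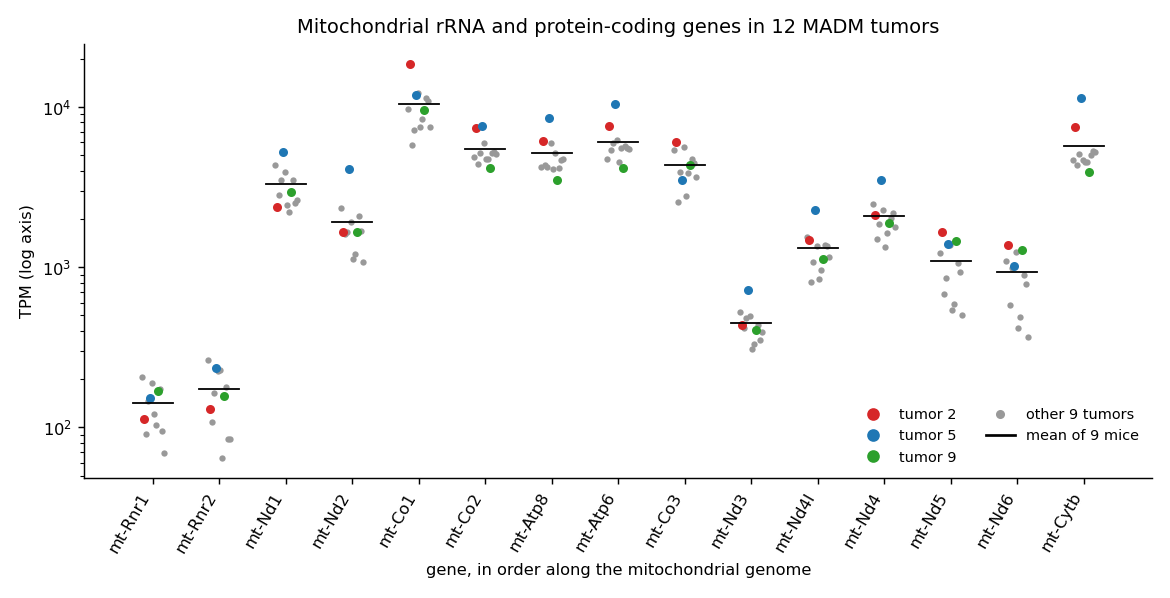
TPM (vertical log axis) of the 2 rRNA and 13 protein-coding genes in their order along the genome, with 1 point per tumor (tumors 2, 5 and 9 colored, the other 9 grey) and a line at the mean of 9 mice. mt-Co1 is at the top with 5784 to 18609 TPM, both rRNA genes lie under 265 TPM, and tumor 5 or tumor 2 is the highest point of each coding gene.

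Genes of one transcript did not have equal levels. A set of 6 pairs chosen by position or role was compared within each tumor on the log2(TPM + 1) scale by exact two-sided sign-flip permutation tests over 9 mice, in which 0.0039 is the smallest p that can be reached, with Benjamini-Hochberg adjustment over the 6 pairs. mt-Nd1 exceeded mt-Nd5, which lies further along the plus strand but before mt-Cytb, by 1.64 ± 0.54 in 9 of 9 mice (exact p = 0.0039, adjusted p = 0.0047). The TPM ratio of the 2 ranged from 1.43 in tumor 2 to 5.22 in tumor 12. mt-Co1 exceeded mt-Cytb by 0.90 ± 0.44 in 9 of 9 mice (exact p = 0.0039, adjusted p = 0.0047), with a TPM ratio from 1.04 in tumor 5 to 2.61 in tumor 6. The 2 rRNA genes did not pass. mt-Rnr2 minus mt-Rnr1 was 0.21 ± 0.45, above 0 in 7 of 9 mice (exact p = 0.20, adjusted p = 0.20). Without tumor 8, the tumor in which mt-Rnr2 was lowest, the difference was 0.32 (exact p = 0.023, adjusted p = 0.023).

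The other 3 pairs overlap on the DNA, and reads from the shared bases cannot be assigned to one gene alone. mt-Atp8 and mt-Atp6 share 43 bases in different reading frames, and mt-Nd4l and mt-Nd4 share 7. No tRNA gene, the place of cutting, lies between the members of either pair. A difference in TPM within them need not be a difference in the amount of RNA. The ends and starts of these genes are shown to make the overlap visible, with the shared bases in capitals (GRCm38, plus strand, 5′ to 3′, from chrM:7907-7969, chrM:7927-7989, chrM:10147-10173 and chrM:10167-10193).
mt-Atp8: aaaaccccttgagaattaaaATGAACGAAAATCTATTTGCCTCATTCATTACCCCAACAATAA
mt-Atp6: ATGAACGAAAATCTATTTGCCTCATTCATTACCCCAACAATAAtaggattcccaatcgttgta
mt-Nd4l: caaaatctcaacctactacaATGCTAA
mt-Nd4: ATGCTAAaaattattcttccctcacta

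The members of each of these pairs moved closely together. mt-Atp6 exceeded mt-Atp8 by 0.22 ± 0.12 and mt-Nd4 exceeded mt-Nd4l by 0.69 ± 0.10, each in 9 of 9 mice (exact p = 0.0039 and adjusted p = 0.0047 for both). The mt-Atp8 to mt-Atp6 ratio of TPM lay between 0.708 and 0.962, and the mt-Nd4l to mt-Nd4 ratio between 0.535 and 0.701. mt-Nd5 and mt-Nd6 lie on opposite strands and share 14 bases at their ends. mt-Nd5 exceeded mt-Nd6 by 0.24 ± 0.13 in 9 of 9 mice (exact p = 0.0039, adjusted p = 0.0047), and tumor 4 was the 1 tumor with more mt-Nd6 than mt-Nd5, at a ratio of 1.15. The kit keeps strand, but the strand setting of the quantification is not given in the sources used here, so reads of antisense genes may not have been separated.

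Nuclear DNA carries old copies of mitochondrial sequence, and 7 of the 13 coding genes had a near-identical copy with a high TPM of its own. A search of annotated nuclear genes for 200 or more aligned bases at 95% identity or more found 11 such genes, of which 10 had a mean of 1 TPM or more. A run of 7 on the minus strand of chromosome 1, within 24611535 and 24616197, matched mt-Nd4, mt-Nd4l, mt-Nd3, mt-Co3, mt-Atp6, mt-Co2 and the last 483 bases of mt-Co1. All 7 are annotated as unprocessed pseudogenes. The alignments of 5 of them held no mismatch, and the other 2 held 1 each, T3C in Gm28438 against mt-Nd3 and A1066T in Gm29216 against mt-Co1 (the mitochondrial base first, then its position from 1 at the start of the mitochondrial gene, then the base of the copy). The stretches around these 2 positions are shown because a read elsewhere in the aligned part cannot tell gene from copy, with the differing base in capitals (mt-Nd3 chrM:9459-9491, Gm28438 chr1:24613087-24613119, mt-Co1 chrM:6390-6423 and Gm29216 chr1:24616155-24616188, each on the strand of its gene).
mt-Nd3: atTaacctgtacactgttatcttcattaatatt
Gm28438: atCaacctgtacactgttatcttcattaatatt
mt-Co1: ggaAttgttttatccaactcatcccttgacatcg
Gm29216: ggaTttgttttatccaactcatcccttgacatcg

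The whole-length copies had almost the same TPM as their mitochondrial gene. The ratio of copy to gene was 1.00 ± 0.000709 for Gm28437 and mt-Co3, 0.999 ± 0.000562 for Gm28661 and mt-Co2, 1.01 ± 0.00129 for Gm10222 and mt-Nd4l, 1.02 ± 0.00797 for Gm28438 and mt-Nd3, and 1.04 ± 0.00815 for Gm10925 and mt-Atp6. The 2 partial copies were lower, with ratios of 0.548 ± 0.0200 for Gm28439 and mt-Nd4 and 0.614 ± 0.0301 for Gm29216 and mt-Co1. Over the 12 tumors the whole-length ratios stayed within 0.997 and 1.05 and the partial ones within 0.484 and 0.678, while the 7 genes themselves ranged from 1.84-fold (mt-Co2) to 3.22-fold (mt-Co1).

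Copies that differ at more positions had far lower values. On chromosome 2, Gm13341 is a copy of mt-Co2 with 95.9% identity and a ratio of 0.0306 ± 0.00272, Gm13340 of mt-Co1 with 97.6% and 0.0133 ± 0.000811, and Gm13339 of mt-Nd2 with 96.7% and 0.00673 ± 0.00251. The eleventh, Gm4076 on chromosome 13, had a mean of 0.571 TPM and is named after its value was seen, to account for all 11. The first 90 bases of mt-Co2 and its 2 copies show the contrast, with 0 differences from Gm28661 and 2 from Gm13341, in capitals (chrM:7013-7102, chr1:24615476-24615565 and chr2:22587873-22587962, each on the strand of its gene).
mt-Co2: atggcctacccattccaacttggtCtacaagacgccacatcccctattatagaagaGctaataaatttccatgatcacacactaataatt
Gm28661: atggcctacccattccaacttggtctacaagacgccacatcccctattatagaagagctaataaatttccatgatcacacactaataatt
Gm13341: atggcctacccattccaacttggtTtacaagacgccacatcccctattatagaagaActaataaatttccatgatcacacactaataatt

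**Figure D3:**
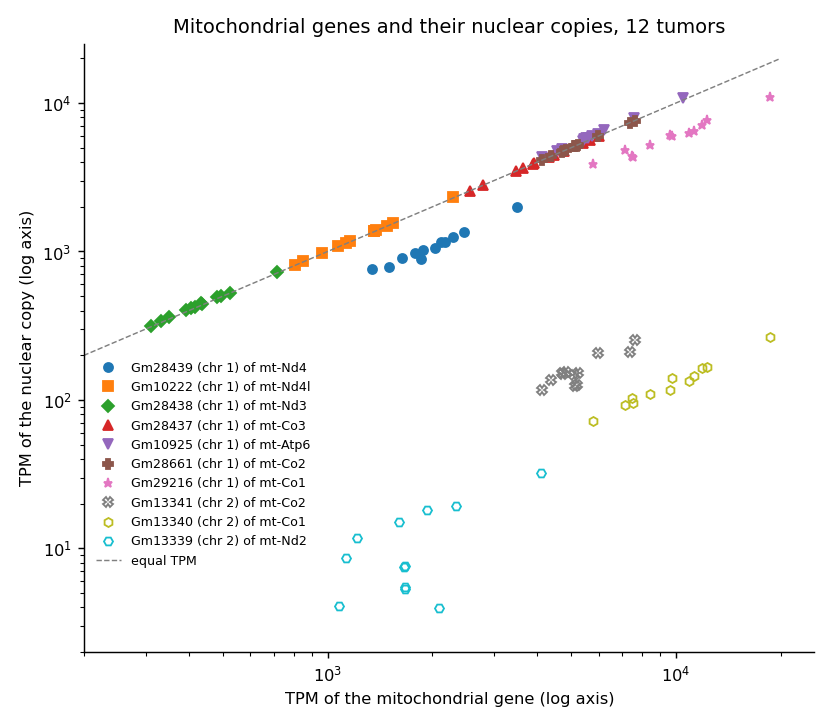
TPM of each of 10 nuclear copies (vertical log axis) against TPM of its mitochondrial gene (horizontal log axis), 1 point per tumor, with filled markers for chromosome 1, open ones for chromosome 2 and a dashed line at equal TPM. The 5 whole-length copies on chromosome 1 lie on the line, the 2 partial ones (Gm28439 and Gm29216) below it, and the 3 on chromosome 2 far below.

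The 7 copies on chromosome 1 took 2.55 ± 0.60% of all TPM (1.84% to 3.54%), so mitochondrial genes and copies together came to 7.59 ± 1.88% (5.50% in tumor 3 to 10.8% in tumor 5). How reads that match both places were shared out is not given and was not tested, so the levels of these 7 genes are uncertain by the size of the copy. No annotated copy in that run matched mt-Nd1, mt-Nd2, mt-Nd5, mt-Nd6, mt-Cytb or mt-Atp8, but bases between annotated genes were not searched. For mt-Atp8 this matters, since the 233 unannotated bases between Gm10925 and Gm28661 are as many as those between the matching ends on chromosome M (7694 to 7926), which hold 161 bases of mt-Atp8, and its other 43 lie in the part that matches Gm10925. mt-Atp8 may therefore share the uncertainty. Adding each copy to its gene, weighted by length, raised mt-Co2 to 10928 ± 2483 TPM, mt-Atp6 to 12343 ± 3927 TPM and mt-Co3 to 8688 ± 2259 TPM. mt-Co1 rose 1.19-fold to 12529 ± 4221 TPM. It stayed first by mean but by a margin far smaller than the SD of either gene over mt-Atp6. mt-Cytb went from place 3 to place 5 among the 13. With the copies added, mt-Atp6 exceeded mt-Atp8 by 1.25 instead of 0.22 and mt-Nd4 exceeded mt-Nd4l by 0.12 instead of 0.69, so the sizes of these 2 differences rest on the handling of the copies, and the 1.25 adds a copy to mt-Atp6 alone. mt-Co1 exceeded mt-Cytb by 1.16 instead of 0.90.

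Each coding gene was highest in tumor 5 or tumor 2, with 9 genes highest in tumor 5 and 4 (mt-Co1, mt-Co3, mt-Nd5 and mt-Nd6) in tumor 2. Over the 16802 genes with a mean of 1 TPM or more, 5.10% were highest in tumor 5 and 20.7% in tumor 2. Against the median tumor, tumor 5 was higher by 1.30 (log2) in mt-Nd2 and 1.24 in mt-Cytb, but mt-Co3 was lower by a difference of -0.24. The mt-Cytb to mt-Co3 ratio was 3.28 in tumor 5 and lay between 0.829 and 1.68 in the other 11. The lowest tumor varied more, with tumor 9 lowest in 4 coding genes, tumors 3 and 12 in 3 each, tumor 7 in 2 and tumor 8 in 1. Of all 16802 genes, 20.6% were lowest in tumor 9, 6.05% in tumor 3, 2.21% in tumor 12, 4.43% in tumor 7 and 8.04% in tumor 8.

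Markers of other tissues rich in mitochondria were read beside these tumors. In tumor 5, Ucp1, the uncoupling protein of brown fat, was listed at 20.1 TPM and at 0 in the other 11, Cidea at 8.56 TPM (next 2.46 TPM) and Cox8b at 9.49 TPM (next 3.40 TPM), so 3 of 4 brown adipocyte markers were highest there. The summed list was 44.7 TPM in tumor 5, 42.8 TPM in tumor 2 and 3.29 to 14.3 TPM in the other 10, and in tumor 2 it was Cox7a1 alone, with the other 3 at 0. The 7 skeletal muscle markers summed to 412 TPM in tumor 3 and 286 TPM in tumor 4, against 2.89 to 62.8 TPM elsewhere, and tumor 3 had the lowest mitochondrial share. The 6 white adipocyte markers summed to 234 TPM in tumor 4, 126 TPM in tumor 5, 96.1 TPM in tumor 9, 81.0 TPM in tumor 3 and 79.1 TPM in tumor 10, and to between 0 and 23.4 TPM in the other 7. The part of these cells in the mitochondrial levels was not tested.

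**Figure D4:**
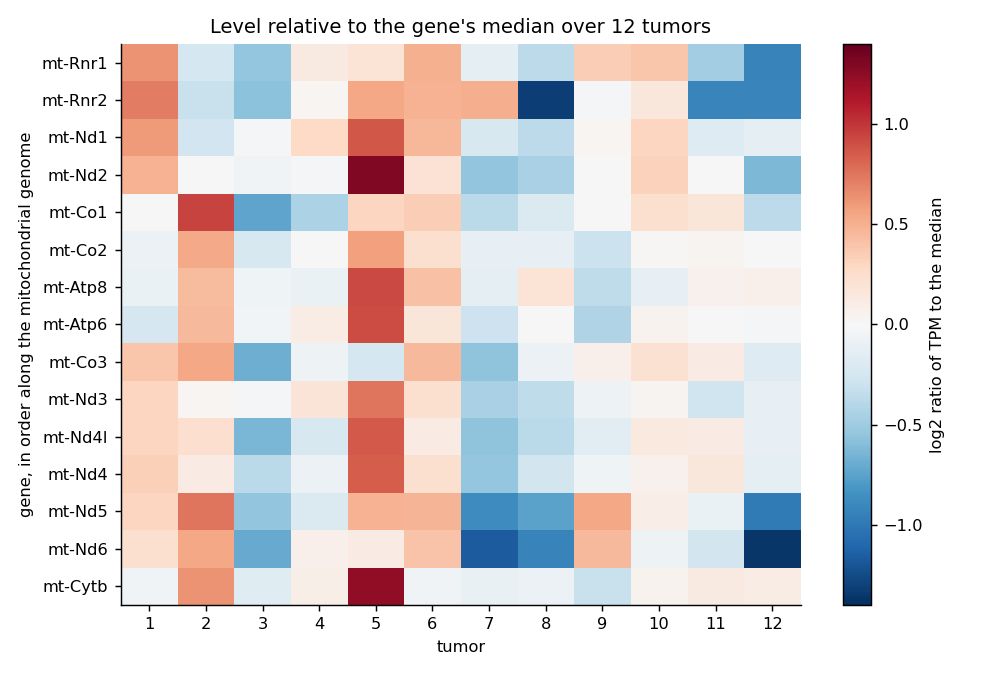
Level of each coding and rRNA gene in each tumor relative to the gene's median over the 12 tumors, as a log2 ratio of TPM on a color scale centred on 0, with genes as rows and tumors as columns. Tumor 5 is high in most coding genes (1.30 in mt-Nd2) but not in mt-Co3 (-0.24), tumor 2 is highest in mt-Co1 (0.94), and tumor 12 is low in mt-Nd6 (-1.36).

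For 13 of 13 coding genes the SD over mice of the log2 level was larger than that of the log2 share of the coding TPM, with medians of 0.42 and 0.25. The margin was wide for mt-Co2 (0.31 and 0.13) and small for mt-Co3 (0.38 and 0.37) and mt-Nd1 (0.42 and 0.38). Dividing by the sum of the same 13 genes removes variation that they share, so a smaller SD is in part built in. No such comparison was made for nuclear genes, so the count is not a result particular to these genes. The median SD of log2(TPM + 1) of the mitochondrial coding genes, 0.42, was below the 0.57 over all 16802 genes with a mean of 1 TPM or more. The values were 0.52 for the rRNA genes and 0.71 for the tRNA genes. These sets were not matched for level, and the coding genes are far above 1 TPM. Tumors of one mouse were closer than tumors of different mice in 12 of 13 genes, the exception being mt-Nd6 (mean absolute log2 difference 0.83 within and 0.76 between mice). Of all 16802 genes with a mean of 1 TPM or more, 91.5% were likewise closer within a mouse, a share near that of the coding genes. The medians over genes were 0.23 for the 4 pairs of tumors within a mouse and 0.46 for the 62 pairs between mice, and with 2 mice to draw on this is a description without a test. Between the 2 tumors of one mouse, 12 of 13 genes were higher in tumor 4 than in tumor 3, mt-Atp8 being the exception at 0.981-fold, against 44.0% of all 16802 genes.

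The ribosomal RNAs form the core of the mitochondrial ribosome. mt-Rnr1 (70 to 1024), the small-subunit RNA, had 143 ± 37.5 TPM, from 69.5 TPM in tumor 12 over a median of 133 TPM to 205 TPM in tumor 1. mt-Rnr2 (1094 to 2675), the large-subunit RNA, had 173 ± 67.4 TPM, from 64.6 TPM in tumor 8 over a median of 161 TPM to 264 TPM in tumor 1. mt-Nd1, which follows on the same transcript, was 10.7-fold to 34.4-fold above mt-Rnr2. Tumors 11 and 12 were low in both rRNA genes (84.7 to 94.8 TPM and 69.5 to 85.0 TPM), while tumor 10 of the same mouse had 174 and 180 TPM.

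The tRNA genes carry the amino acids for mitochondrial translation and had values that split by strand. All 8 tRNA genes of the minus strand had a mean of 10 TPM or more, with a median of 42.1 TPM (11.7 to 1088 TPM). Of the 14 on the plus strand 2 did, mt-Tl1 at 163 ± 46.6 TPM and mt-Tm at 31.8 ± 17.9 TPM, and the median was 3.42 TPM. In all, 20 of 22 had a mean of 1 TPM or more. The others were mt-Tf at 0.892 ± 0.445 TPM and mt-Tv, which was listed at 0 in 7 tumors and reached 2.43 TPM in tumor 7. mt-Tq was listed at 0 in 3 tumors, mt-Ti and mt-Tl2 in 1 each and mt-Tf in 2. The tRNA genes are 59 to 75 bases long, no longer than the 75-base reads, and the values do not separate a mature tRNA from an uncut transcript. The strand setting of the quantification is not given in the sources used here. Reads of the opposite strand may therefore be part of these values, and their part in the split by strand was not tested.

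**Figure D5:**
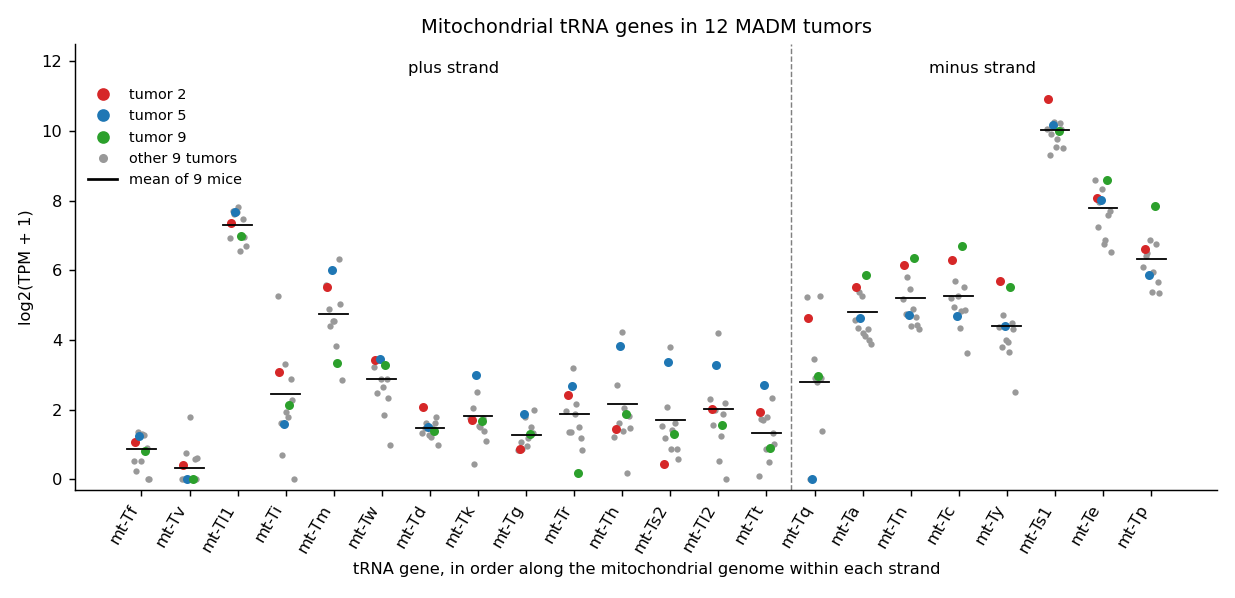
log2(TPM + 1) of the 22 tRNA genes, plus strand left and minus strand right of the dashed line, with 1 point per tumor (tumors 2, 5 and 9 colored, the other 9 grey) and a line at the mean of 9 mice. The 8 minus-strand genes have means of 11.7 to 1088 TPM, while on the plus strand mt-Tl1 and mt-Tm stand above the other 12.

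The serine tRNA gene mt-Ts1 alone took 60.2 ± 6.89% of the tRNA TPM. It had 1088 ± 357 TPM (981 ± 169 TPM without tumor 2), from 630 TPM in tumor 3 over a median of 1037 TPM to 1942 TPM in tumor 2, the same tumors that were lowest and highest for mt-Co1. It lies against the end of mt-Co1 on the other strand and shares 3 bases with it. With the strand setting unknown, reads of mt-Co1 may be counted in mt-Ts1, which was not tested, so its TPM is not a measure of tRNA amount. The mt-Ts1 to mt-Co1 ratio was 0.104 ± 0.00764, and 11 tumors lay between 0.0960 and 0.110 with tumor 4 at 0.134. The glutamate tRNA gene mt-Te, next to mt-Nd6 on the same strand, had 246 ± 107 TPM and a ratio to mt-Nd6 of 0.262 ± 0.0436 (0.197 in tumor 2 to 0.354 in tumor 1). mt-Tl1, a leucine tRNA gene between mt-Rnr2 and mt-Nd1, had 0.455 to 1.91 times the mt-Rnr2 level. These 3 genes, the most abundant of the 22, are shown whole, with the bases that mt-Ts1 shares with mt-Co1 in capitals (chrM:6870-6938 and chrM:14071-14139 on the minus strand, chrM:2676-2750 on the plus strand).
mt-Ts1: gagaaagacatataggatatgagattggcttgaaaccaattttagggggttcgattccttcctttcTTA
mt-Te: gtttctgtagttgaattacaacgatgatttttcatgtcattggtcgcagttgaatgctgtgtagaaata
mt-Tl1: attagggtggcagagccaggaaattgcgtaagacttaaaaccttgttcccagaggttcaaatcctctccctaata

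The 9 minus-strand genes and the 12 plus-strand coding genes placed tumors 5, 9 and 12 differently, by counts without a test. Of the 9 minus-strand genes, tumor 9 was among the highest 2 tumors in 7 and tumor 2 in 6, and tumor 12 was lowest in 7. Over all 16802 genes with a mean of 1 TPM or more, 21.1% had tumor 9 and 27.3% had tumor 2 among the highest 2, and 2.21% were lowest in tumor 12. Of the 12 plus-strand coding genes, tumor 9 was among the highest 2 in 1 and lowest in 4, whereas tumor 5 was among the highest 2 in 9 and tumor 2 in 7. Tumor 5 was among the highest 2 for none of the minus-strand genes but for 9 of the 14 plus-strand tRNA genes, and tumor 6 for 6 of these 14. Of all 16802 genes, 13.2% had tumor 5 and 13.3% tumor 6 among the highest 2. The proline tRNA gene mt-Tp was at 229 TPM in tumor 9, 1.99-fold above the next tumor, with a mean of 90.9 ± 56.5 TPM. These counts describe the 12 tumors, since the genes of a strand share a transcript and are not independent. The strand setting is not given, so reads of opposite strands may not have been separated in them.

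The nuclear subunit genes of the respiratory chain and ATP synthase differed from the mitochondrial coding genes in the tumor where most were highest. Of 75 nuclear subunit genes (36 of complex I, 4 of complex II, 9 of complex III, 11 of complex IV and 15 of ATP synthase), 51 were highest in tumor 2, or 68%, against the 20.7% of all genes given above. In tumor 5, 4 of the 75 were highest, or 5.33%, near the background of 5.10%, although 9 of the 13 mitochondrial coding genes peaked there. Among these 4 was Ndufa4, a complex IV subunit named after its values were seen, at 3502 TPM in tumor 5 and 932 TPM in the next tumor. With it, the 11 nuclear complex IV genes summed to 7464 TPM in tumor 5, against 8279 TPM in tumor 2 and 3544 to 5368 TPM in the other 10. The median TPM of the 75 was 285 in tumor 2 and 152 to 193 in the other 11. Rescaled to a total without the mitochondrial genes, 53 and 5 genes were highest in tumors 2 and 5.

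In each nuclear list the highest and lowest genes were taken as examples. Cox4i1, a regulatory subunit of complex IV, had 934 ± 148 TPM and Cox7b 224 ± 64.4 TPM. Atp5b, the catalytic subunit of ATP synthase, had 794 ± 256 TPM and Atp5g1, a gene for the c subunit of its ring, 137 ± 38.0 TPM. Uqcrh and Uqcrq, small subunits of complex III, had 438 ± 165 and 114 ± 49.4 TPM. Ndufa6 and Ndufa11, accessory subunits of complex I, had 293 ± 155 and 41.3 ± 7.89 TPM. Sdhd and Sdhc, the membrane anchors of complex II, which has no mitochondrially encoded subunit, had 190 ± 69.1 and 63.2 ± 11.0 TPM. Per length, Cox4i1 had a lower mean than 11 of the 13 mitochondrial coding genes, although mt-Nd4l, mt-Nd5 and mt-Nd6 lay within 1 of their own SDs of it. Tumor 2 was the highest for 7 of these 10 nuclear genes, and without it Uqcrh was at 387 ± 64.9 TPM, Ndufa6 at 252 ± 98.1 TPM, Sdhd at 171 ± 39.4 TPM, Uqcrq at 99.5 ± 22.7 TPM, Cox7b at 204 ± 25.4 TPM, Atp5b at 727 ± 172 TPM and Cox4i1 at 897 ± 107 TPM (n = 8 mice).

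The nuclear genes that act on mitochondrial DNA and RNA had means far below mt-Co1, the most abundant gene. Of the 8 transcription genes, Mterf3, a negative regulator, was highest at 38.2 ± 7.85 TPM and Mterf1a, a termination factor, lowest at 5.89 ± 2.71 TPM. Among the 16 RNA processing and stability genes, Hsd17b10, a subunit of the RNase P that cuts at tRNA ends, had 95.7 ± 14.7 TPM and Fastkd1 7.44 ± 1.60 TPM. Ssbp1, which binds single-stranded mitochondrial DNA, had 81.5 ± 28.0 TPM and Polg2, an accessory subunit of the DNA polymerase, 9.43 ± 2.97 TPM, among the 9 maintenance genes. Among the 7 biogenesis regulators, Yy1 had 45.2 ± 12.0 TPM and Ppargc1a, a coactivator of mitochondrial gene programs, 1.80 ± 1.49 TPM. In tumor 2, 4 of the 8 transcription, 6 of the 16 processing, 2 of the 9 maintenance and 1 of the 7 biogenesis genes were highest, and in tumor 5 the numbers were 2, 0, 2 and 0. Against backgrounds of 20.7% and 5.10% of all genes, the maintenance count in tumor 2 was near and the biogenesis count below the share of all genes.

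Next, 6 correlations over 9 mice set a mitochondrial gene beside a nuclear gene of the same complex or a regulator, on the log2(TPM + 1) scale with exact permutation of the pairings and Benjamini-Hochberg adjustment over the 6. None passed after adjustment. mt-Co1 and Tfam, the factor that packages mitochondrial DNA and starts its transcription, had r = 0.80 (exact p = 0.013, adjusted p = 0.078) and rho = 0.75 (exact p = 0.025, adjusted p = 0.15). Tfam had 22.5 ± 8.74 TPM and was highest, like mt-Co1, in tumor 2 (42.1 TPM, next 31.9 TPM). Without the 2 mice farthest from the median of mt-Co1 (that of tumor 2 and that of tumors 3 and 4) r was 0.64 (exact p = 0.13), so the relation rests in part on them. Without tumor 2 r was 0.55 (exact p = 0.16, adjusted p = 0.65), the lowest of the values with a single mouse left out, and without the mouse of tumor 1 it was 0.93 (exact p = 0.0017, adjusted p = 0.0100).

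The other 5 had adjusted p-values from 0.44 to 0.60. mt-Co1 and Cox4i1 had r = 0.40 (exact p = 0.29) and rho = 0.12 (exact p = 0.78), and the sign turned to r = -0.25 (exact p = 0.54) without tumor 2 and to r = -0.89 (exact p = 0.010) without the same 2 farthest mice, so its direction rests on them. mt-Cytb and Uqcrc2, a core subunit of complex III, had r = 0.49 (exact p = 0.19) and rho = 0.38 (exact p = 0.31), with r = -0.37 (exact p = 0.43) without the mice of tumors 2 and 5. mt-Atp6 and Atp5a1, the alpha subunit of ATP synthase, had r = 0.45 (exact p = 0.23) and rho = 0.32 (exact p = 0.41), with r = -0.31 (exact p = 0.50) without the same mice. mt-Nd1 and Ndufs1, the largest complex I subunit, had r = -0.23 (exact p = 0.55) and rho = -0.42 (exact p = 0.27), with r = -0.50 (exact p = 0.25) without the mice of tumors 1 and 5. mt-Co1 and Ppargc1a had r = -0.21 (exact p = 0.60) and rho = -0.30 (exact p = 0.44), with r = -0.08 (exact p = 0.85) without the mice of tumors 2, 3 and 4. For rho the adjusted p-values of these 5 ran from 0.52 to 0.78.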

How the data were processed

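Poly(A) RNA of whole tumors was sequenced as 75-base stranded paired-end libraries. Per the labels and the study's methods, the authors trimmed the reads, aligned them to GRCm38 with HISAT and computed TPM with StringTie 2.1.6, and deposited 1 TPM value per Ensembl gene and tumor, without pooling. The strand setting, the treatment of reads with several matches and the summing over transcripts are not given in the sources used here. Deposited columns were assigned to tumors by animal number and suffix.

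TPM were used as deposited or as log2(TPM + 1), and tumors of a mouse were averaged. Pairs were tested by exact sign-flip and correlations by exact permutation, each adjusted by Benjamini-Hochberg. The named genes are all mt- genes, the highest and lowest of each nuclear list, the correlated nuclear genes, the targeted genes and the nuclear copies with a mean of 1 TPM or more. Other genes are markers, or are marked as named after their values were seen. Members and lists were chosen with earlier results of these data known. Sequences, positions and overlaps came from GENCODE vM21 and its GRCm38 transcripts, and copies from blastn 2.17.0. Alternatives were a pseudocount of 0.1, each tumor as a unit, leaving out each mouse, rescaled nuclear TPM, other gene classes and thresholds and, chosen after seeing the data, adding the copies or taking them out of the total. The scripts ran under Python 3.11.15 with scipy 1.17.1, pandas 2.3.3, numpy 2.4.6 and, for plots, matplotlib 3.10.9.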

Additional observations from a re-analysis of the deposited data

Results flagged for a closer look

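Of 44 values examined over 9 mice (the 37 genes, the 6 pairs and the share), 2 had a mouse far from the others by Dixon's test at the 95% level, which flags about 1 in 20 by chance. mt-Tv, the valine tRNA gene, was highest in the mouse of tumor 7 at 1.78 on the log2(TPM + 1) scale, with the nearest mouse at 0.40, and it was listed at 0 in 7 tumors. mt-Td, the aspartate tRNA gene, was highest in the mouse of tumor 2 at 2.06, with the nearest at 1.54. Both genes had means under 2 TPM.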

How the results depend on the processing

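No paired analysis was possible because the tumors form a single group, so that no replicate number links samples of different groups (the gene pairs were compared within tumors). The 5 pairs that passed kept their direction and their call under every alternative run, which for leaving out a mouse was fixed by their being above 0 in 9 of 9 mice (0.0078 is the smallest p over 8 mice). Leaving out each mouse in turn moved mt-Rnr2 minus mt-Rnr1 between 0.12 and 0.32, and it passed without the mouse of tumor 8 (0.32). It moved r of mt-Co1 with Tfam between 0.55 and 0.93, which passed without the mouse of tumor 1, and r of mt-Co1 with Cox4i1 between -0.25 and 0.56, which turned negative without the mouse of tumor 2 (-0.25). The cause was not tested. Adding the 7 nuclear copies, an alternative chosen after seeing the data, moved the mitochondrial share from 5.04% to 7.59%. A threshold of 10 TPM in place of 1 left 10 of the 22 tRNA genes in place of 20, which follows from its construction, and 0.1 TPM kept 22. The other 4 correlations missed the threshold in every alternative. TPM carries no depth, so the precision of genes near 0, such as mt-Tv, cannot be given.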
